A study of Danio rerio with 6 samples.

Results

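The rows described here are the small noncoding RNA genes of an RNA-seq table: small nucleolar RNAs (snoRNAs), small Cajal body RNAs (scaRNAs), small nuclear RNAs (snRNAs), 5S ribosomal RNA and the RNA of the signal recognition particle (SRP). They were chosen by gene name alone, and 56 of the 21769 gene IDs in the table carried such a name. There were 27 rows of 5S rRNA, 12 of H/ACA snoRNAs, 11 of C/D snoRNAs, 3 of spliceosomal snRNAs, 2 of SRP RNA and 1 of a scaRNA. The RNA was taken at 36 hours post fertilization (hpf) from AB strain zebrafish, in 3 libraries with the genotype *dhx38*-- or *dhx38*-/- and 3 libraries of WT siblings. The tissue is called tail in most label fields and trunk in the extraction text. The labels state neither the mutation in *dhx38*, which encodes a DEAH-box ATPase of the spliceosome, nor how many embryos went into a library. Whether libraries of 1 genotype stem from different clutches is not stated either, so the p-values reflect only how far these libraries differ, which may be technical. The comparison asked how the level of each class differed in the mutant libraries from that in the sibling libraries.

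snoRNAs guide chemical modification of other RNAs in the nucleolus. C/D snoRNAs direct the methylation of ribose and H/ACA snoRNAs the conversion of uridine to pseudouridine, mostly in ribosomal RNA, while scaRNAs do the same for snRNAs. In vertebrates most snoRNAs lie in introns of other genes, often genes of ribosomal proteins, and are trimmed out of the intron after splicing. U1 and U6 snRNA are RNA components of the spliceosome. U1 is made by RNA polymerase II, and U6, 5S rRNA and SRP RNA by RNA polymerase III. None of these RNAs normally carries a long poly(A) tail.

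Levels are in normalized CPM as deposited, and the depth estimated from the spacing of low values was 19.5 to 37.7 M reads in the mutants and 20.03 to 36.5 M in the siblings. Replicate 3 was the shallowest library in both groups. The other mutants were at 32.1 and 37.7 M, and the other siblings at 34.8 and 36.5 M. One read was worth 0.0259 to 0.0547 normalized CPM in the mutants and 0.0270 to 0.0520 in the siblings, so most values below rest on few reads. Each gene in the table reached 0.29 normalized CPM in at least 3 of the 6 libraries. A row below that level in all 3 siblings is therefore listed only because the mutants were higher, and had to differ. This was so for 23 of the 56 small RNA rows and for 134 genes in the whole table (0.616%). The reverse held for 2 of the 56 rows and 35 genes (0.161%). Counts over the listed rows are given with that in view, and small RNA genes that did not reach the table were not analysed here. *dhx38* mRNA was at 57.2, 90.4 and 53.1 in mutants, against 33.8, 33.8 and 27.3 in siblings (limma adjusted p = 0.0630). The limma adjusted p was 0.00664 with the replicate number as a block, a setting in which 6.85% of all genes rose. It was 0.114 with 0.1 rather than 1 added before the log2. With single libraries left out it was under 0.05 only without mutant replicate 1, and up to 0.197. Summed markers of skeletal muscle were at 10052 to 12253 in mutants and 14930 to 17019 in siblings, and those of eye and lens, which a tail would lack, at 212 to 652 in mutants and 505 to 756 in siblings. Epidermis markers leaned the other way, at 16951 to 22717 in mutants and 14352 to 18466.5 in siblings. Notochord markers were at 1115 to 2191 in mutants and 627 to 2111 in siblings. Posterior hox and forebrain sums overlapped between the groups too, and no marker in any of these lists was called. The part of these tissue differences in the results below was not tested. In bulk RNA, fewer cells of a type and less RNA per cell cannot be told apart.

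The snoRNA rows stood higher in the mutants. The 23 H/ACA and C/D rows summed to 28.1, 49.1 and 51.1 normalized CPM in mutant replicates 1, 2 and 3, against 3.88, 4.92 and 3.62 in sibling replicates 1, 2 and 3. Those sums correspond to about 963, 1901 and 936 reads in mutants and about 135, 182 and 70 in siblings. The mean was 42.8 ± 12.8 in mutants and 4.14 ± 0.688 in siblings (SD, n = 3 each), a ratio of 10.3. Within same-number pairs the ratio was 7.24, 9.99 and 14.1. The listing can raise these ratios, since 16 of the 23 rows were listed only through the mutants. The 4 rows named *SNORA73*, which may share reads, weigh heavily in the sums. Their mean levels were 10.4, 4.68, 4.54 and 1.37 in mutants, against 1.11, 0.453, 0.700 and 0.180 in siblings. Mutant replicate 1 was the lowest of the mutants in 20 of the 23 rows. It was above each sibling in all 23 rows, but the 16 rows listed only through the mutants allowed no other outcome. Over all genes, each mutant library was above each sibling library in 13.3%.

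**Figure D1:**
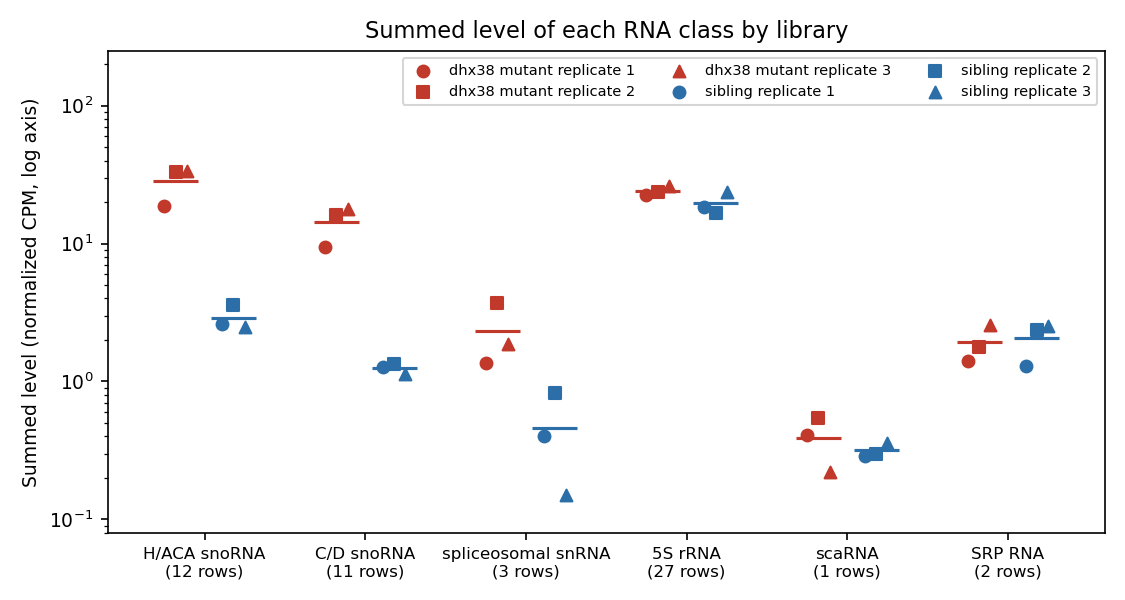
Summed level of each RNA class in normalized CPM on a log axis, in mutant (red) and sibling (blue) libraries. Each symbol is 1 library and bars are group means. The snoRNA sums lie between 9.41 and 33.4 in mutants and between 1.13 and 3.59 in siblings, while the 5S rRNA sums lie between 22.5 and 26.3 in mutants and between 16.8 and 23.6 in siblings.

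In 23 of the 23 snoRNA rows the lowest mutant library was above the highest sibling library, as in 13.3% of all genes, and 11 rose at the threshold (limma on log2 of normalized CPM + 1, Benjamini-Hochberg adjusted p under 0.05), against 1.41% of all genes. None fell, against 0.285% of all genes, and 0 were lower at an unadjusted p under 0.05. With the replicate number as a block, 23 of 23 rose, against 6.85% of all genes. Of these rows 16 were listed only through the mutants. The other 7, which reached 0.29 in at least 1 sibling library, had log2 fold changes of 0.81 to 2.40, and 5 of them rose. *SNORD68*, *SNORD24*, *SNORD33* and *SNORA73* ENSDARG00000080823 did so in only 1 sibling library, so their listing also needed mutant libraries. The rest of the 7, all *SNORA73* rows, reached it in each sibling library. The median log2 fold change over the 23 rows was 0.93, beside -0.01 over all genes. With a pseudocount of 0.1 in place of 1 it was 2.61, since adding 1 to values this low shrinks the fold.

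**Figure D2:**
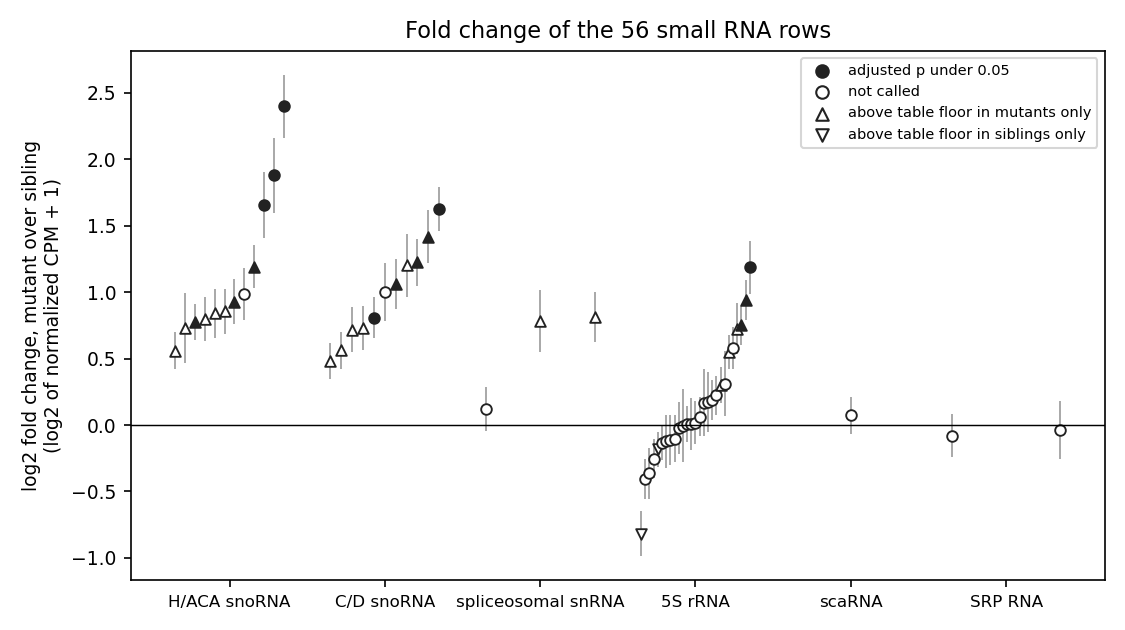
Log2 fold change, mutant over sibling, of the 56 rows by class, with bars of 1 SE. Filled symbols are rows at an adjusted p under 0.05, and triangles are rows above the floor of the table in 1 group only. The 23 snoRNA rows lie between 0.48 and 2.40, and the 5S rRNA rows lie on both sides of 0, between -0.82 and 1.19.

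Among the H/ACA snoRNAs, 3 of the 4 *SNORA73* rows rose. *SNORA73* is the family also known as U17, which acts in the processing of ribosomal RNA. Its 4 rows all lie on the minus strand of chromosome 20 and may share reads, so the split between them is uncertain. The row ENSDARG00000082242 was at 6.68, 12.31 and 12.24 normalized CPM in mutants, against 1.18, 1.38 and 0.78 in siblings. Its mean level was 10.4 ± 3.23 in mutants and 1.11 ± 0.306 in siblings (SD, n = 3 each), with a log2 fold change of 2.40 (SE 0.24, limma adjusted p = 0.00664).

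The row ENSDARG00000083400 of *SNORA73* was at 2.69, 3.80 and 7.54 in mutants, against 0.46, 0.59 and 0.31 in siblings (log2 fold change 1.88, limma adjusted p = 0.0255). The row ENSDARG00000083108 was at 2.60, 5.07 and 5.96 in mutants, against 0.58, 0.59 and 0.93 in siblings (1.66, limma adjusted p = 0.0238). In these 3 rows the groups did not overlap, and mutant replicate 1 was the lowest of the mutants. The fourth row, ENSDARG00000080823, was at 0.79, 1.68 and 1.64 in mutants and 0.09, 0.35 and 0.10 in siblings, and missed the threshold (limma adjusted p = 0.0507).

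One row of *SNORA63* and both of *SNORA62* also rose, and all rows of these families were listed only through the mutants, so that they had to differ. The first *SNORA63* row (ENSDARG00000081702) was at 0.99, 1.76 and 1.48 in mutants, against 0.03, 0.11 and 0 in siblings (log2 fold change 1.19, limma adjusted p = 0.0184). The second (ENSDARG00000115262) was at 1.26, 0.98 and 0.44 in mutants and 0.09, 0.03 and 0 in siblings, and missed the threshold (limma adjusted p = 0.0681). Both lie on chromosome 5, and both were close to 0 in siblings.

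The *SNORA62* rows, both on chromosome 6, passed. ENSDARG00000116745 was at 0.90, 1.78 and 1.15 in mutants, against 0.12, 0.22 and 0.21 in siblings (log2 fold change 0.93, limma adjusted p = 0.0417). ENSDARG00000081943 was at 0.61, 0.75 and 0.87 in mutants, against 0, 0.05 and 0 in siblings (0.78, limma adjusted p = 0.0352). The sibling values of ENSDARG00000081943 stand for no more than about 2 reads in any library. *SNORA70*, *SNORA71*, *SNORA23* and the row named *SNORA36B* had log2 fold changes of 0.86, 0.80, 0.73 and 0.56 and missed the threshold (limma adjusted p from 0.0516 to 0.173). The Ensembl name table gives *SNORA36A* for that last row.

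Among the C/D snoRNAs, *SNORD68*, *SNORD18*, *SNORD24* and 2 rows of *SNORD15* rose. The *SNORD18* and *SNORD15* rows were listed only through the mutants and had to differ, while *SNORD68* and *SNORD24* reached the floor of the table in 1 sibling library. *SNORD68* (ENSDARG00000104104, chromosome 7) was at 2.19, 3.21 and 2.62 normalized CPM in mutants, against 0.17, 0.35 and 0.05 in siblings. Its mean level was 2.67 ± 0.512 in mutants and 0.190 ± 0.151 in siblings (SD, n = 3 each), with a log2 fold change of 1.62 (SE 0.16, limma adjusted p = 0.00664). *SNORD68* was the C/D row with the smallest p, and its 3 mutant libraries were closer to each other than those of *SNORA73*.

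*SNORD18* (ENSDARG00000082511) was at 1.20, 2.07 and 2.62 in mutants, against 0.06, 0 and 0.21 in siblings (log2 fold change 1.42, limma adjusted p = 0.0216). *SNORD24* (ENSDARG00000109264) was at 0.88, 1.34 and 1.31 in mutants, against 0.37, 0.19 and 0.16 in siblings (0.81, limma adjusted p = 0.0458). *SNORD24* had the highest sibling values relative to its mutant values of the C/D rows that rose.

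*SNORD15* has 3 rows on the plus strand of chromosome 18. ENSDARG00000111557 was at 0.99, 1.34 and 2.02 in mutants, against 0, 0 and 0.10 in siblings (log2 fold change 1.23, limma adjusted p = 0.0216). ENSDARG00000098534 was at 0.96, 1.45 and 2.19 in mutants, against 0.17, 0.14 and 0.26 in siblings (1.06, limma adjusted p = 0.0390). In the 3 *SNORD15* rows mutant replicate 3 was the highest library and mutant replicate 1 the lowest of the mutants. The third row, ENSDARG00000113885, had a log2 fold change of 0.73 and missed the threshold (limma adjusted p = 0.0705). *SNORD21*, *SNORD33*, both *SNORD83* rows and *SNORD31* also missed it, with log2 fold changes of 0.48 for *SNORD31* to 1.20 for *SNORD21* (limma adjusted p from 0.0507 to 0.102).

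**Figure D3:**
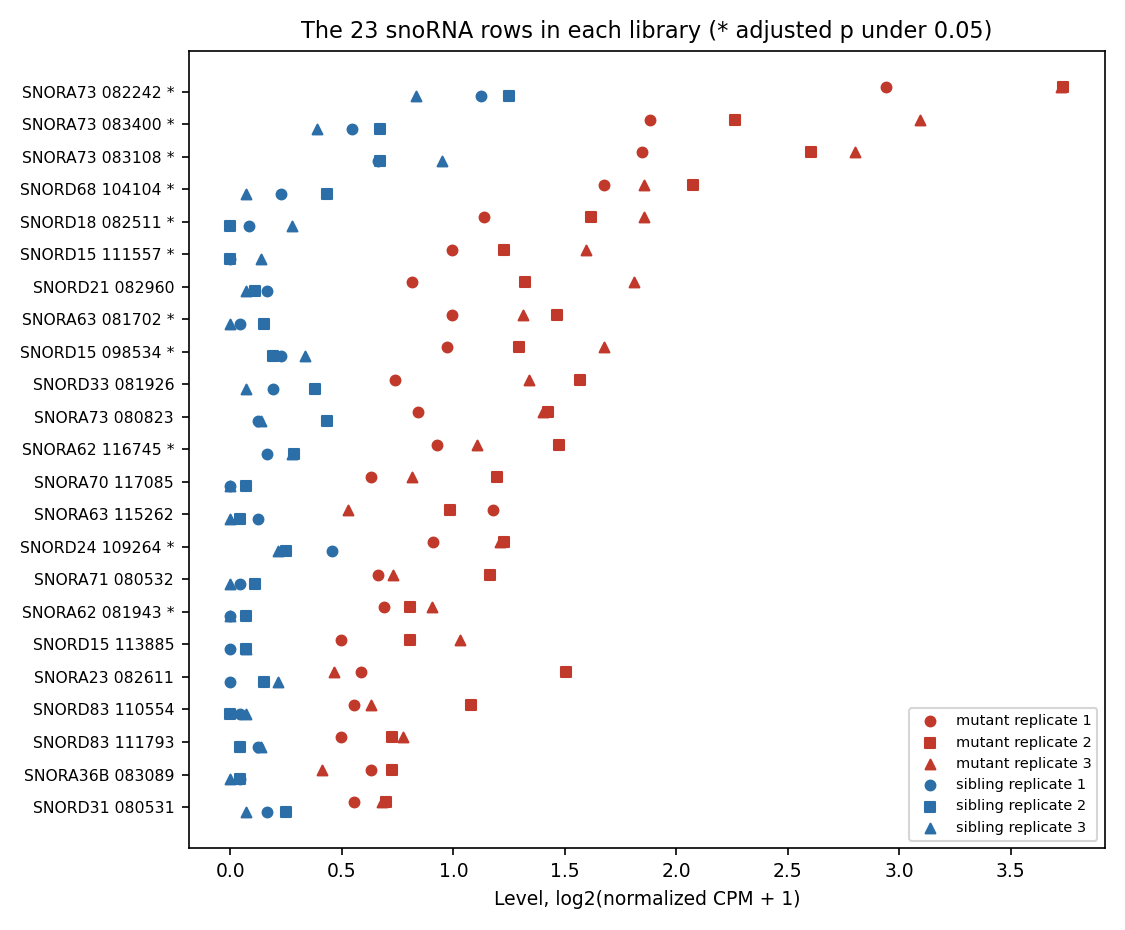
Level of each of the 23 snoRNA rows as log2 of normalized CPM + 1, in mutant (red) and sibling (blue) libraries, labelled by name and the last digits of the gene ID. Each symbol is 1 library, and stars mark the 11 rows at an adjusted p under 0.05. In every row the mutant symbols lie to the right of the sibling symbols, as in 13.3% of all genes. For the 16 rows listed only through the mutants no other order was possible.

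The mRNAs of genes known to host 11 of the 15 snoRNA families in human were set beside the snoRNA rows. Of the 9 that lie on the same chromosome and strand as their row none rose, and *eif4a2*, which lies elsewhere, rose. Hosts were looked up for 11 families, a list drawn up after the snoRNA values had been seen. No host was looked up for *SNORA73*, which holds the snoRNA row with the highest mean level, or for *SNORA71*, *SNORA36B* and *SNORD31*. The host results do not cover these families. For 9 families, with 12 rows, the zebrafish counterpart lies on the same chromosome and strand as the snoRNA row in the deposited table. These are *rps3* for *SNORD15*, *rpl4* for *SNORD18*, *rpl5b* for *SNORD21*, *rpl7a* for *SNORD24*, *rpl13a* for *SNORD33*, *rpl13* for *SNORD68*, *rpsa* for *SNORA62*, *rpl10* for *SNORA70* and *ipo7* for *SNORA23*. In RefSeq's GRCz12tu annotation 8 of these 9 genes hold at least 1 snoRNA gene, which that table does not name. The files give no coordinates, so a position of the row inside the host gene was not checked.

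The 9 host mRNAs had log2 fold changes of -0.30 to 0.13, with a median of -0.20, and the 12 snoRNA rows of 0.73 to 1.62. None of the 9 hosts passed the threshold (limma adjusted p from 0.326 to 0.843), where 1.41% of all genes rose and 0.285% fell. With the replicate block 0 passed, where 6.85% of all genes rose and 6.87% fell. With 9 genes and shares this small, 0 calls does not set the hosts apart from all genes. Of the 12 snoRNA rows 7 rose, against 1.41% of all genes. The *SNORD15*, *SNORD18*, *SNORD21*, *SNORA62*, *SNORA70* and *SNORA23* rows were listed only through the mutants and had to differ. The host mRNAs, far above the floor of the table, were under no such constraint. The difference between a row and its host was not itself tested. *rpl13* mRNA was at 1015, 1136 and 1755 normalized CPM in mutants, against 1245, 1277 and 1934 in siblings, where *SNORD68* was about 14.1 times higher by group mean in mutants. *rps3* mRNA was at 1756, 1884 and 2243 in mutants, against 2270, 2334 and 2481 in siblings. It did not pass (limma adjusted p = 0.326), and each mutant library was below each sibling library. That was so for 2 of the 9 hosts, against 13.8% of all genes. The 3 *SNORD15* rows stood higher in mutants. The remaining families of the 11 looked up, *SNORD83* (*RPL3* in human) and *SNORA63* (*EIF4A2* in human), lie on other chromosomes than zebrafish *rpl3* and *eif4a2*. *rpl3* had a log2 fold change of -0.21 (limma adjusted p = 0.570). *eif4a2*, which encodes a translation initiation helicase, was at 63.5, 99.2 and 117.8 in mutants, against 36.4, 34.7 and 43.7 in siblings (1.23, limma adjusted p = 0.0463, and 0.0911 with a pseudocount of 0.1). Its groups did not overlap, and its log2 fold change stands beside 1.19 and 0.84 for the *SNORA63* rows. Adding 1 shrinks the fold of those low rows far more, so the changes are not alike in size. By group mean the *SNORA63* rows were about 30.2 and 22.3 times higher in mutants, and *eif4a2* was at 93.5 against 38.2. With single libraries left out *eif4a2* passed only without mutant replicate 1 (limma adjusted p up to 0.213). A row's value counts reads over its bases, so a mature snoRNA and an unspliced host transcript that covers it cannot be told apart.

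**Figure D4:**
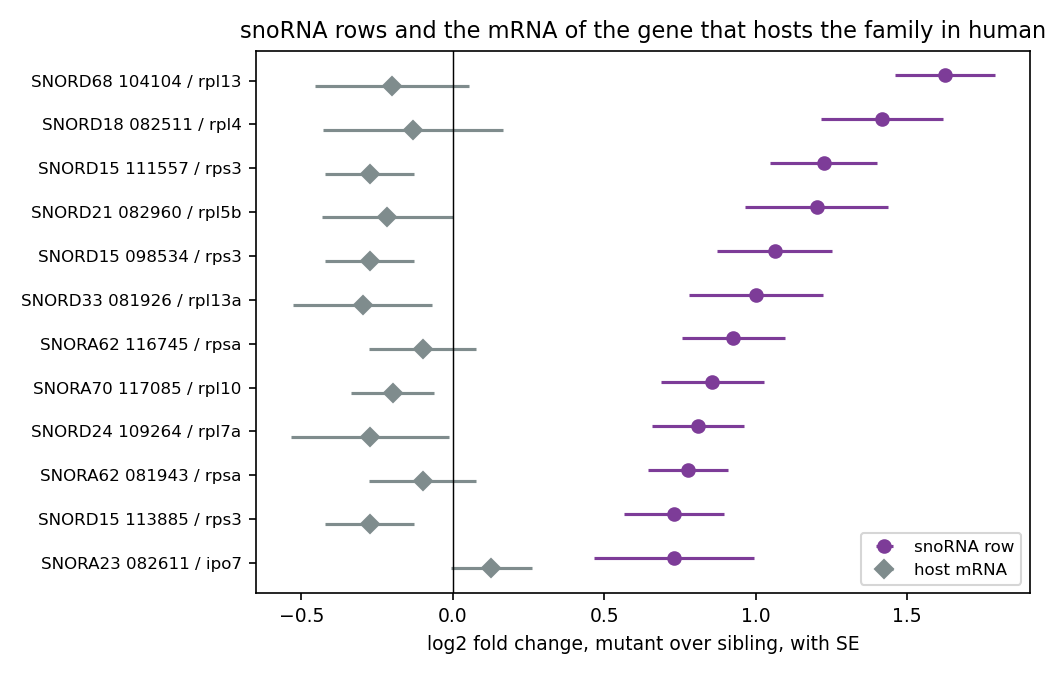
Log2 fold change, mutant over sibling, with 1 SE, of 12 snoRNA rows (circles) and of the mRNA of the gene that hosts the family in human and lies on the same chromosome and strand here (diamonds). Each line pairs 1 row with its host. The circles lie between 0.73 and 1.62 and the diamonds between -0.30 and 0.13. All rows but those of *SNORD24*, *SNORD33* and *SNORD68* were listed only through the mutants and had to differ.

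The spliceosomal snRNAs were represented by 3 rows. Both U1 rows lie on the minus strand of chromosome 7 and may share reads. U1 ENSDARG00000113445 was at 0.67, 1.42 and 0.60 normalized CPM in mutants, against 0.03, 0.16 and 0 in siblings (log2 fold change 0.81, limma adjusted p = 0.0724). U1 ENSDARG00000114494 was at 0.55, 1.89 and 0.82 in mutants, against 0.23, 0.24 and 0.05 in siblings (0.78, limma adjusted p = 0.119). Neither passed, and both were highest in mutant replicate 2. Both rows were listed only through the mutants, so their groups could not overlap. With the replicate block both rose (limma adjusted p = 0.0104 and 0.0236), as did 6.85% of all genes. The U6 row was at 0.15, 0.39 and 0.44 in mutants and 0.14, 0.43 and 0.10 in siblings, with overlapping groups (limma adjusted p = 0.728).

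The 5S rRNA rows went in both directions. 5S rRNA is a component of the large ribosomal subunit that is encoded by many near-identical gene copies, so reads of one copy can be lost or split among others. The 27 rows summed to 22.5, 23.6 and 26.3 normalized CPM in mutants, against 18.4, 16.8 and 23.6 in siblings, and the groups overlapped. The ratio of the means was 1.23, against 10.3 for the snoRNAs. The listing bears on these ratios unequally. Of the 27 rows 5 were listed only through the mutants and 2 only through the siblings, against 16 and 0 of the 23 snoRNA rows. Of the 27 rows 3 rose and 0 fell at the threshold, against 1.41% and 0.285% of all genes. At an unadjusted p under 0.05, 6 were higher and 2 lower, against 10.2% and 10.7% of all genes. Blocking on replicate number, 6 passed as higher and 1 as lower, where 6.85% and 6.87% of all genes did. The median log2 fold change was 0.02.

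The 5S rRNA rows that rose lie on different chromosomes. ENSDARG00000109054 on chromosome 15 was at 0.76, 1.16 and 1.37 in mutants, against 0.09, 0.11 and 0.05 in siblings (log2 fold change 0.94, limma adjusted p = 0.0312). ENSDARG00000116635 on chromosome 16 was at 1.17, 2.64 and 1.69 in mutants, against 0.26, 0.30 and 0.10 in siblings (1.19, limma adjusted p = 0.0352). Their mutant values were several times the sibling values in each library. ENSDARG00000107203 on chromosome 11 was at 0.67, 1.01 and 0.71 in mutants, against 0.17, 0.03 and 0 in siblings (0.75, limma adjusted p = 0.0491). The rows on chromosomes 15 and 11 were listed only through the mutants.

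In 4 of the 27 5S rRNA rows each mutant library was below each sibling library, against 13.8% of all genes. Of these 4 rows 2 were listed only through the siblings, and none fell at the threshold. ENSDARG00000106401 on chromosome 7 was at 0.23, 0.05 and 0.11 in mutants, against 0.95, 0.68 and 1.40 in siblings (log2 fold change -0.82). It missed the threshold (limma adjusted p = 0.0570). Under the block it fell (limma adjusted p = 0.0111), as did 6.87% of all genes. It was listed only through the siblings. ENSDARG00000111843 was at 0.90, 0.85 and 0.87 in mutants and 1.12, 1.51 and 1.87 in siblings, and did not pass (limma adjusted p = 0.184).

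Most other 5S rRNA rows overlapped between the groups. In 7 rows the mutants were higher without overlap and in 4 lower, against 13.3% and 13.8% of all genes. Of the 7 rows 5 were listed only through the mutants, and of the 4 rows 2 only through the siblings, so their groups had to differ. ENSDARG00000112529, the row with the highest mean level, was at 3.30, 2.84 and 4.64 in mutants and 3.31, 3.03 and 4.62 in siblings. Replicate 3 was its highest library in both groups, as in 6 of the 27 rows.

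**Figure D5:**
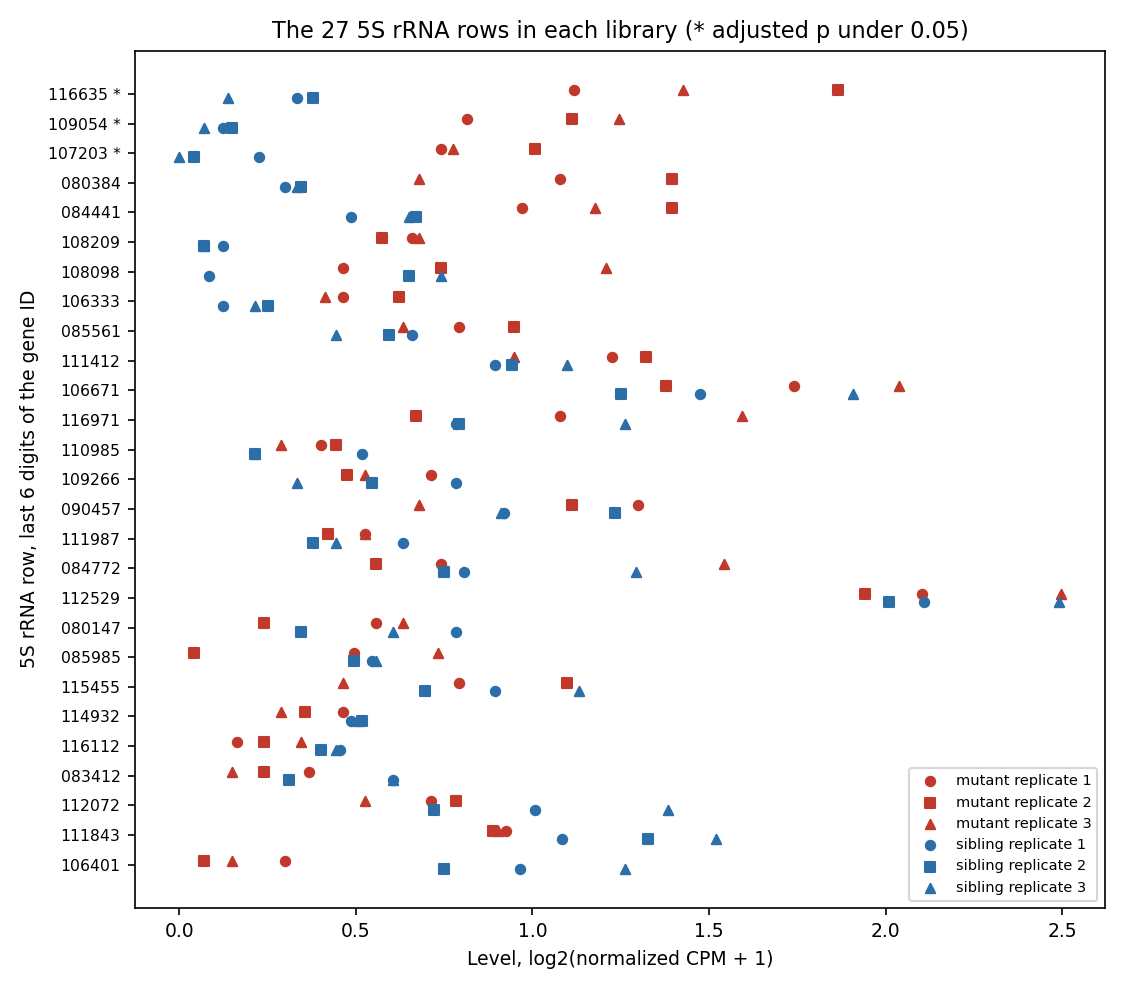
Level of each of the 27 5S rRNA rows as log2 of normalized CPM + 1, in mutant (red) and sibling (blue) libraries, ordered by log2 fold change. Each symbol is 1 library, and stars mark the 3 rows at an adjusted p under 0.05. The mutants are higher without overlap in 7 rows and lower without overlap in 4, against 13.3% and 13.8% of all genes. The groups overlap in 16 rows. Of the 7 rows 5 were listed only through the mutants, and of the 4 rows 2 only through the siblings. Groups in those rows had to differ.

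The scaRNA and the SRP RNA rows did not pass. *SCARNA8* was at 0.41, 0.54 and 0.22 normalized CPM in mutants and 0.29, 0.30 and 0.36 in siblings (log2 fold change 0.07, limma adjusted p = 0.818). SRP RNA, the scaffold of the particle that brings secretory proteins to the endoplasmic reticulum, had a row on chromosome 3 (ENSDARG00000087732, *rn7sl1* in the Ensembl name table) at 1.23, 1.34 and 2.35 in mutants and 1.12, 1.81 and 2.18 in siblings (-0.04, limma adjusted p = 0.943). Its groups overlapped throughout. The second SRP row (ENSDARG00000114737) was at 0.18, 0.44 and 0.22 in mutants and 0.17, 0.54 and 0.36 in siblings (-0.08, limma adjusted p = 0.820).

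Other short or unpolyadenylated RNAs were set beside the snoRNAs, chosen after the values of the snoRNAs had been seen. The 13 microRNA hairpin rows, also short and often intronic, had a median log2 fold change of -0.03. Limma called 0 of them, where 1.41% of all genes rose and 0.285% fell. At an unadjusted p under 0.05, 0 were higher and 1 lower, against 10.2% and 10.7% of all genes. In 2 rows the mutants were higher without overlap and in 1 lower, against 13.3% and 13.8% of all genes. Whether these counts differ from those shares was not tested. The microRNA rows summed to 6.81, 6.90 and 9.47 normalized CPM in mutants and 8.16, 7.34 and 9.03 in siblings. Their listed levels are as low as those of most snoRNA rows. Of the 13 rows 1 was listed only through the mutants and 1 only through the siblings. For the 23 snoRNA rows these counts were 16 and 0, so the sets were not listed alike. The 2 rows of 5.8S rRNA, which has no poly(A) tail, summed to 24.7, 56.1 and 60.4 in mutants and 13.5, 12.8 and 33.2 in siblings, a ratio of means of 2.37. Within same-number pairs the ratio was 1.83, 4.40 and 1.82. Their log2 fold changes were 1.17 and 1.21, both at an unadjusted p under 0.05, and the groups overlapped. Neither passed without the replicate block, and both rose with it (limma). The part of unpolyadenylated RNA carried into the libraries in the snoRNA result was not tested.

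Genes for proteins that make or bind these RNAs were taken from 4 lists. The lists were drawn up with earlier results of these data known, so the shares of all genes are not a like background. Over all genes 1.41% rose and 0.285% fell, and with the replicate block 6.85% rose and 6.87% fell. Of 14 measured factors of snRNA promoters and their elongation 4 rose and 0 fell, with and without the block, with *snapc4*, *ice1* and *brf2* at the smallest p (log2 fold changes 3.27, 3.28 and 3.12). Of 21 measured subunits of RNA polymerase III and its TFIII factors, counted without *brf2*, 0 rose and 0 fell (limma). Before adjustment, 4 of them were higher and 3 lower (limma p below 0.05), against 10.2% and 10.7% of all genes. With the block 2 rose and 2 fell, and the list median was 0.10. *brf2*, which rose, was counted among the snRNA promoter factors only, so these counts do not cover it. Of 21 snoRNP and scaRNP proteins and assembly factors 2 rose and 0 fell (median 0.16). With the block 4 rose and 2 fell. With a pseudocount of 0.1, 1 rose, where 0.873% of all genes did.

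The snoRNP genes that rose were *snu13a* and *ruvbl1*. *snu13a* encodes a protein that binds the kink-turn of C/D snoRNAs and of U4 snRNA, and was at 72.0, 170.3 and 211.02 normalized CPM in mutants, against 26.1, 26.9 and 31.8 in siblings (log2 fold change 2.25, limma adjusted p = 0.0287, and 0.0639 with a pseudocount of 0.1). It passed only without mutant replicate 1 when single libraries were left out (adjusted p up to 0.148). *ruvbl1* encodes an ATPase of the snoRNP assembly machinery, and was at 207.9, 344 and 259 in mutants, against 88.7, 98.6 and 74.2 in siblings (1.60, limma adjusted p = 0.0177). It did not pass in the 4 fits without mutant replicate 2 or a sibling library (up to 0.0904).

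Of 34 measured partner and processing proteins 3 rose and 0 fell (median 0.01), and 3 rose and 4 fell with the block. *ssb* encodes La, which binds the 3′ end of new RNA polymerase III transcripts, and was at 280.2, 502 and 487 in mutants, against 88.6, 104.9 and 108 in siblings (log2 fold change 2.02, limma adjusted p = 0.0114). *toe1*, of a 3′ exonuclease that matures snRNAs, was at 18.9, 40.7 and 33.1 in mutants, against 6.97, 8.19 and 7.63 in siblings (1.83, limma adjusted p = 0.0216). *mettl16*, of a methyltransferase of U6 snRNA, was at 36.0, 65.7 and 78.03 in mutants, against 6.99, 7.19 and 5.30 in siblings (2.96, limma adjusted p = 0.00664). As in 20 of the 23 snoRNA rows, mutant replicate 1 was the lowest mutant in each of these genes. *mettl16*, *snapc4*, *ice1* and *brf2* passed whichever of the 6 libraries was left out. *ssb* failed without mutant replicate 2 or any 1 sibling library (adjusted p up to 0.0667), and *toe1* passed only without mutant replicate 1 (up to 0.0981).

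Over the 56 rows 14 rose and 0 fell, against 1.41% and 0.285% of all genes. That share is not a like background, since 23 of the 56 rows, against 0.616% of all genes, were listed only through the mutants. Among the 14, the *SNORD18*, *SNORD15*, *SNORA63* and *SNORA62* rows and 5S rRNA ENSDARG00000109054 and ENSDARG00000107203 were such rows and had to differ. With replicate number as a block 31 rose and 1 fell, against 6.85% and 6.87%, and the genes called went up to 2986, against 370 without it. At a pseudocount of 0.1, 23 rose and 1 fell, against 0.873% and 0.0689% of all genes. With that pseudocount and the block, 19 rose and 1 fell, against 0.717% and 0.0597%. These 19 held 11 of the 14, and *SNORA73* ENSDARG00000083400, *SNORD24* and 5S rRNA ENSDARG00000107203 missed the threshold (limma adjusted p = 0.0601, 0.0722 and 0.0615). The counts changed with the libraries used. Without mutant replicate 2, or without sibling replicate 1, 2 or 3, 2 rows rose, against 0.142% to 0.239% of all genes. They were *SNORA73* ENSDARG00000082242 and *SNORD68* each time, and the other 12 of the 14 did not pass. Without mutant replicate 3, 7 rows rose, against 0.643% of all genes, and 6 of them were among the 14. Without mutant replicate 1, 25 rose, including the 14, against 3.98% of all genes. With replicate 3 of both groups left out, 0 rows and 0 of all genes passed with limma. Of the rows, 32 were then higher and 1 lower at an unadjusted p under 0.05 (limma). That count stands without a share of all genes, and 23 of the 56 rows had to be higher to be listed. Whether the rise holds in those libraries is not decided by it.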

How the data were processed

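The authors deposited 1 signal value per gene and library, rounded to 2 decimals, which the file headers call normalized CPM. Tools listed in the submitters' processing notes are edgeR, featureCounts, STAR and fastp, and the build is GRCz11. How library factors were set, how strand and multiply mapped reads were treated, and whether poly(A) RNA was selected is not stated there. Small RNA rows were selected by name, and the name table gave a symbol for 55 of the 56 IDs. Members, lists and tests were chosen with earlier results of these data known.

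The value of 1 read was estimated as the step that low values follow within 0.0055. Rounding was too coarse to recover whole reads in 4 of 6 libraries, so no count test was run, and read numbers are approximate. The test was limma 3.58.1 (R 4.3.3) on log2(value + 1), over the 21769 genes, mutant against sibling, with Benjamini-Hochberg adjustment and a threshold of 0.05. The procedure was tested on simulated data, with changed genes drawn from those with a mean log2(value + 1) above 1. Most small RNA rows lie below that level, so the simulation does not speak for them. Replicate numbers were taken to pair libraries, since deviations from group means correlated with r of 0.45, 0.43 and 0.57 for numbers 1, 2 and 3. The main fit has no block. Named were each row past the threshold, in each class the row with the highest mean and the smallest p in each direction, the 3 largest and 3 lowest fold changes among rows averaging at least 1, and at most 3 called genes of each protein list. Other rows named were chosen after their values were seen.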

Additional observations from a re-analysis of the deposited data

How the results depend on the processing

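The 370 genes called became 205 with a pseudocount of 0.1, 2986 with the replicate block, 169 with both, 1320 at an adjusted p under 0.1, and 0 in replicates 1 and 2 alone, where 0 small RNA rows passed. Leaving out single libraries gave 31 to 1731. The 14 small RNA rows that rose became 23, 31, 19 and 28 in the first 4 of these settings, 2 to 25 with a library left out, 14 with a filter on low values or centring, and 18 with a variance trend. The 0 rows that fell became 1 with the pseudocount, the block, both, the variance trend or the looser threshold, and 0 to 1 with a library left out. With the block and without mutant replicate 1, a setting chosen after seeing the data, 4151 genes passed, and 31 rows rose and 2 fell. With a pseudocount of 0.1, with or without the block, class medians were 2.59 for C/D snoRNAs, 2.76 for H/ACA snoRNAs and 2.05 for spliceosomal snRNAs, against 1.002, 0.892 and 0.783. The 5S rRNA median of 0.02 was 0.17 with the low-value filter, 0.087 in replicates 1 and 2 alone, and 0.014 to 0.121 with a library left out. The SRP median of -0.06 was -0.193 to 0.023 with a library left out. Count tests on recovered reads were not run. The cause of these changes was not tested, other than fewer libraries or rows.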
